A study of Mus musculus with 24 samples.

Results

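The genes described here encode the nuclear subunits of respiratory complexes II, III, IV and V. They were taken as the protein-coding rows of the deposited table whose symbols are Sdha to Sdhd, Cyc1, or begin with Uqcr, Cox4 to Cox8 or Atp5. Cox7a1 and Cox8b, which mark brown and beige fat, were left out. The rule found 47 of 54532 rows (22046 of them protein coding): 4 of complex II, 9 of complex III, 16 of complex IV and 18 of complex V. They carry 46 symbols, because Atp5o occurs in 2 rows. Of the 47 rows, 44 passed the filter on low values (at least 0.5 FPKM, fragments per kilobase of gene scaled to library depth, in at least 3 of the libraries fitted), in each depot alone and in both together. The other 3, the second Atp5o row and the testis isoforms Cox7b2 and Cox8c, were at 0 FPKM in all 24 libraries.

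Complex II (succinate dehydrogenase) passes electrons from succinate to ubiquinone, complex III passes them on to cytochrome c, and complex IV (cytochrome c oxidase) reduces oxygen. Complexes III and IV pump protons across the inner mitochondrial membrane, and complex V (ATP synthase) uses the returning protons to make ATP. White adipocytes have fewer mitochondria than brown adipocytes and use them for fatty acid handling and the supply of acetyl groups as well as for ATP, and several complex IV subunits exist as isoforms tied to a tissue.

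RNA was sequenced from inguinal fat (iWAT, under the skin) and epididymal fat (eWAT, in the abdomen) of C57BL6 mice. Each mouse carried an adeno-associated viral vector, either AAV-irisin, for the secreted part of the muscle protein Fndc5, or the control AAV-GFP. The diet was chow or high in fat (HFD) and lasted 18 weeks. The 8 groups were iWAT GFP chow, iWAT irisin chow, iWAT GFP HFD and iWAT irisin HFD and the same 4 in eWAT, each with 3 libraries. The labels give neither the age of the mice nor the promoter of the vectors, nor do they say whether the 3 libraries of a group are separate mice, so p-values measure the spread between libraries. Whether iWAT and eWAT libraries come from the same mice is also not stated, and the depot comparisons treat them as independent. Libraries are named below by group and replicate number.

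The libraries held 14145644 to 19726771 gene reads. The adipocyte marker Adipoq was at 615 to 2284 FPKM in all 24 libraries. Markers of other tissues were highest in 4 libraries, which are left out together in an alternative below. Summed B cell markers were at 1930 FPKM in iWAT GFP HFD 1 and 2488 in eWAT GFP chow 1, against a median of 449 over all libraries. Summed skeletal muscle markers were at 4338 FPKM in iWAT irisin chow 3, 297 in irisin chow 2 and 90.1 in irisin chow 1 (median 23.8), and epididymis markers at 3107 FPKM in eWAT GFP HFD 3 (median 0). In iWAT GFP chow 3 the 10 macrophage markers summed to 209 FPKM, against 1397 and 1354 in the rest of its group. Another library, eWAT irisin HFD 2, stood apart from the other 2 of its group: its 10 summed macrophage markers were at 1090 FPKM against 3073 and 3351, and its 10 adipocyte markers at 12812 against 7314 and 6050. In whole tissue, fewer cells of a type and less RNA per cell cannot be told apart.

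Complex IV held the largest part of the subunit transcripts and complex II the smallest. Of the summed FPKM of the 47 rows, complex IV made up 43.2% to 47.7% in the 24 libraries, complex V 28.3% to 32.6%, complex III 17.0% to 18.5% and complex II 5.99% to 7.70%. The summed level itself varied more than these shares, from 3161 FPKM in iWAT GFP HFD 1 to 7129 in iWAT irisin HFD 2, with a median of 5275. The median level over all libraries was at least 100 FPKM for 18 members, led by Cox8a (684), Cox6a1 (589), Atp5b (381), Cox4i1 (335) and Atp5a1 (295). Among those tested, 5 had a median under 10 FPKM: Cox6a2 (1.13), Cox6b2 (1.66), Cox4i2 (2.95), Atp5s (4.48) and Atp5g1 (6.59). The highest library exceeded the lowest by 1.7 to 3.5 times for 40 of the 44 tested members. The exceptions were Cox7a2l, with 1.46 times, Cox4i2 with 9.49, Cox6b2 with 14.8, and Cox6a2, which was at 0 in some libraries.

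**Figure D1:**
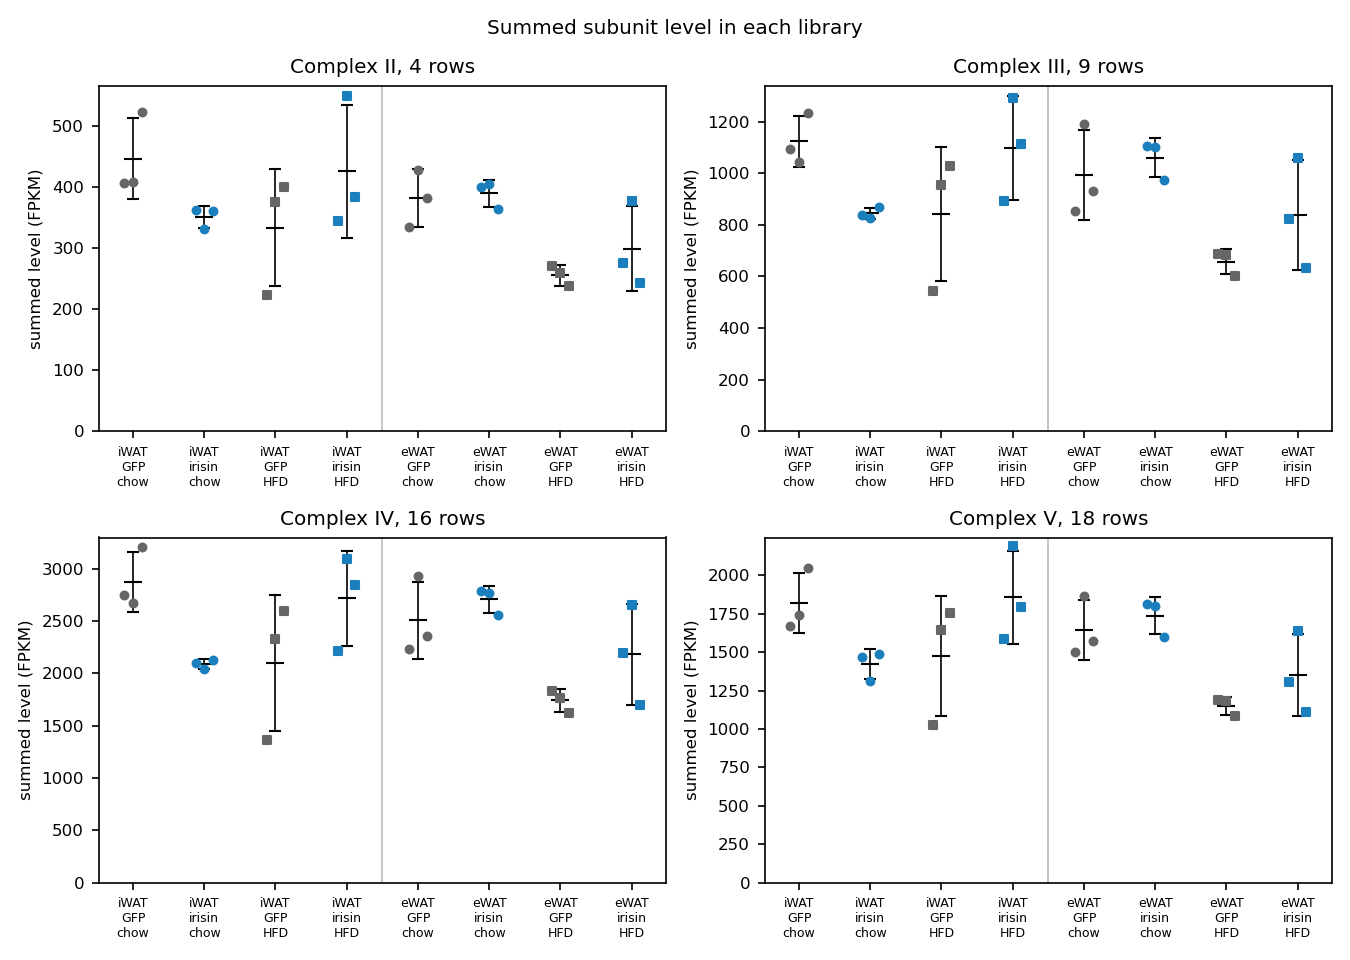
Summed FPKM of each complex's rows (y axis, linear from 0) in every library (points; grey GFP, blue irisin; circles chow, squares HFD), by group (x axis), with the mean (bar) and SD (whiskers) of 3 libraries. The 3 eWAT GFP HFD libraries lie below the 6 eWAT chow libraries in all 4 complexes, and iWAT GFP HFD 1 is the lowest iWAT library in each.

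Subunit transcripts of all 4 complexes were lower in eWAT after HFD. Of the 44 tested, 31 fell and 3 rose with HFD in the mean over both vectors, at a Benjamini-Hochberg adjusted p under 0.05 in limma on log2(FPKM + 0.5). Among all 16274 genes tested in eWAT, 39.3% were called in that comparison, 18.4% lower and 20.9% higher. The median log2 fold change was -0.40 over the members, against -0.0027 over all genes. By complex the median was -0.43 for complex II, -0.48 for III, -0.33 for IV and -0.36 for V. The called falls numbered 3 of 4 in complex II, 8 of 9 in III, 8 of 14 in IV and 12 of 17 in V.

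In complex II both catalytic subunits and 1 of the 2 membrane anchors fell. Sdha, the flavoprotein that oxidises succinate, was at 129, 150 and 151 FPKM in eWAT GFP chow and 148, 151 and 142 in irisin chow. After HFD it was at 78.1, 84.5 and 80.4 FPKM in GFP and 91.8, 129 and 76.0 in irisin. HFD and chow did not overlap within either vector, and irisin HFD 2 was the highest HFD library. Its log2 fold change was -0.71 ± 0.12 (SE, n = 6 against 6, adjusted p = 0.000928, limma). The iron-sulfur subunit Sdhb fell by 0.46 ± 0.10 (adjusted p = 0.00439, limma) and the anchor Sdhc fell by 0.40 ± 0.13 (adjusted p = 0.0351, limma). The other anchor, Sdhd, had a log2 fold change of -0.30 ± 0.12 and was not called (adjusted p = 0.0718, limma). Differences between these subunits were not tested.

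In complex III the electron carriers and the core proteins fell together. Uqcrc2, a core protein, was at 56.7, 65.0 and 60.9 FPKM in eWAT GFP chow and 64.3, 65.1 and 58.2 in irisin chow, and at 37.0, 39.5 and 36.6 in GFP HFD and 38.4, 53.1 and 34.4 in irisin HFD. All 6 HFD libraries lay below all 6 chow libraries. Uqcrc2 fell by 0.64 ± 0.10 (adjusted p = 0.00082, limma). Cyc1, the cytochrome that hands electrons to cytochrome c, fell by 0.57 ± 0.11 (adjusted p = 0.00266, limma), and Uqcrfs1, the Rieske iron-sulfur protein, fell by 0.65 ± 0.13 (adjusted p = 0.00285, limma). The second core protein, Uqcrc1, fell by 0.34 ± 0.096 (adjusted p = 0.0163, limma), and the small subunits Uqcr11, Uqcrb, Uqcrh and Uqcrq fell by 0.40 to 0.49. Uqcr10 was not called, with -0.33 ± 0.15 (adjusted p = 0.0974, limma).

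Complex IV was the most mixed of the 4. Cox8a, a small membrane subunit and the highest of all members, was at 667, 850 and 728 FPKM in eWAT GFP chow and 850, 812 and 761 in irisin chow. It was at 407, 408 and 377 FPKM in GFP HFD and 561, 739 and 414 in irisin HFD. The irisin HFD libraries spread widely and lay partly between chow and GFP HFD. Cox8a fell by 0.72 ± 0.14 (adjusted p = 0.00218, limma). Cox6b2, the testis isoform of an outer subunit, fell by 0.84 ± 0.18 from a low level (adjusted p = 0.0039, limma). Of the regulatory and structural subunits, Cox4i1, Cox5a, Cox5b, Cox6a1, Cox6c and Cox7c fell by 0.30 to 0.46. Cox6b1, Cox7a2, Cox7b and Cox4i2 were not called, with log2 fold changes of -0.29, -0.22, -0.18 and -0.09.

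In complex V the called falls covered catalytic, stalk and membrane subunits. Atp5c1, the rotating gamma subunit, was at 142, 185 and 149 FPKM in eWAT GFP chow, 180, 169 and 155 in irisin chow, 88.9, 88.4 and 79.2 in GFP HFD and 91.2, 128 and 81.2 in irisin HFD. No HFD library reached the lowest chow library. Atp5c1 fell by 0.82 ± 0.12 (adjusted p = 0.000469, limma). The delta subunit Atp5d fell by 0.46 ± 0.094 (adjusted p = 0.00301, limma) and the stalk subunit Atp5h fell by 0.48 ± 0.10 (adjusted p = 0.00391, limma). The catalytic core subunits fell too: Atp5a1 (alpha) by 0.44 ± 0.10 and Atp5b (beta) by 0.50 ± 0.13 (adjusted p = 0.00587 and 0.00916, limma). Atp5e, Atp5l, Atp5o and Atp5mpl were not called, with log2 fold changes between -0.30 and -0.15.

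**Figure D2:**
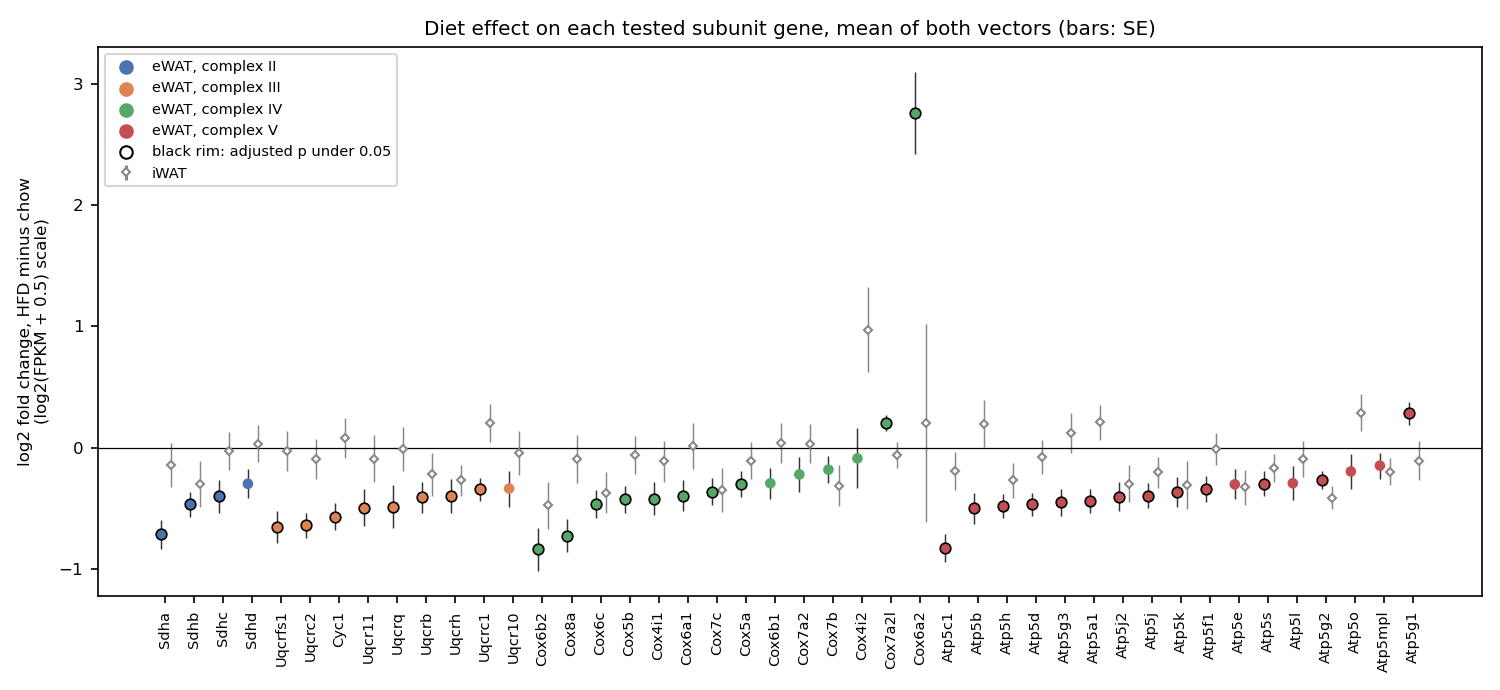
Log2 fold change (y axis, log2(FPKM + 0.5) scale) from chow to HFD, mean of both vectors, for each of the 44 tested members (x axis, ordered within complexes) in eWAT (filled, coloured by complex, black rim where the adjusted p is under 0.05) and in iWAT (open diamonds). Bars are SE; most eWAT points lie below 0, Cox6a2 stands at 2.76, and the iWAT points scatter around 0.

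The 3 members that rose in eWAT after HFD were Cox6a2, Atp5g1 and Cox7a2l. Cox6a2, the isoform of heart and skeletal muscle, was at 0.291, 0.424 and 0.176 FPKM in GFP chow and at 0, 0 and 0.0948 in irisin chow. After HFD it was at 3.31, 6.80 and 3.62 FPKM in GFP and 6.85, 1.06 and 4.88 in irisin. All 6 HFD libraries lay above all 6 chow libraries, and irisin HFD 2 was the lowest of them. The log2 fold change was 2.76 ± 0.34 (adjusted p = 0.000199, limma), on a scale that understates changes of low genes. In eWAT no chow library of Cox6a2 reached 0.5 FPKM, so it passed the filter on low values only through HFD, where it is high, and its call among the 3 rises supports nothing further. Cox6a2 lies on the minus strand at chr7:128205435-128206387 of the deposited table, and 70 of its 680 exon bases (chr7:128205435-128205504) are shared with exons of Itgad on the opposite strand, which encodes an integrin of macrophages. The sources used here do not say whether the libraries keep the strand, so reads from the shared bases cannot be assigned to either gene. Itgad, chosen after its values were seen, was at 0 to 0.0958 FPKM in the 6 eWAT chow libraries, at 7.75, 13.0 and 8.56 in GFP HFD and at 12.6, 1.04 and 8.42 in irisin HFD. For both genes irisin HFD 2 was the lowest HFD library, and GFP HFD 2 and irisin HFD 1 were the highest. Itgad too passed the filter only through HFD, and no test is given for it. The 11 skeletal muscle markers summed to 17.2 to 92.9 FPKM in eWAT. Of the 4 tested there, Pvalb was called higher with HFD (log2 fold change 3.17) and Actn3 lower (-1.39). Acta1 was at 9.79 to 90.1 FPKM, highest in irisin HFD 2, and Ckm, chosen after its values were seen, at 0 to 0.0384. The part of muscle transcripts was not tested. How much of the Cox6a2 value comes from Itgad transcripts was not tested.

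**Figure D3:**
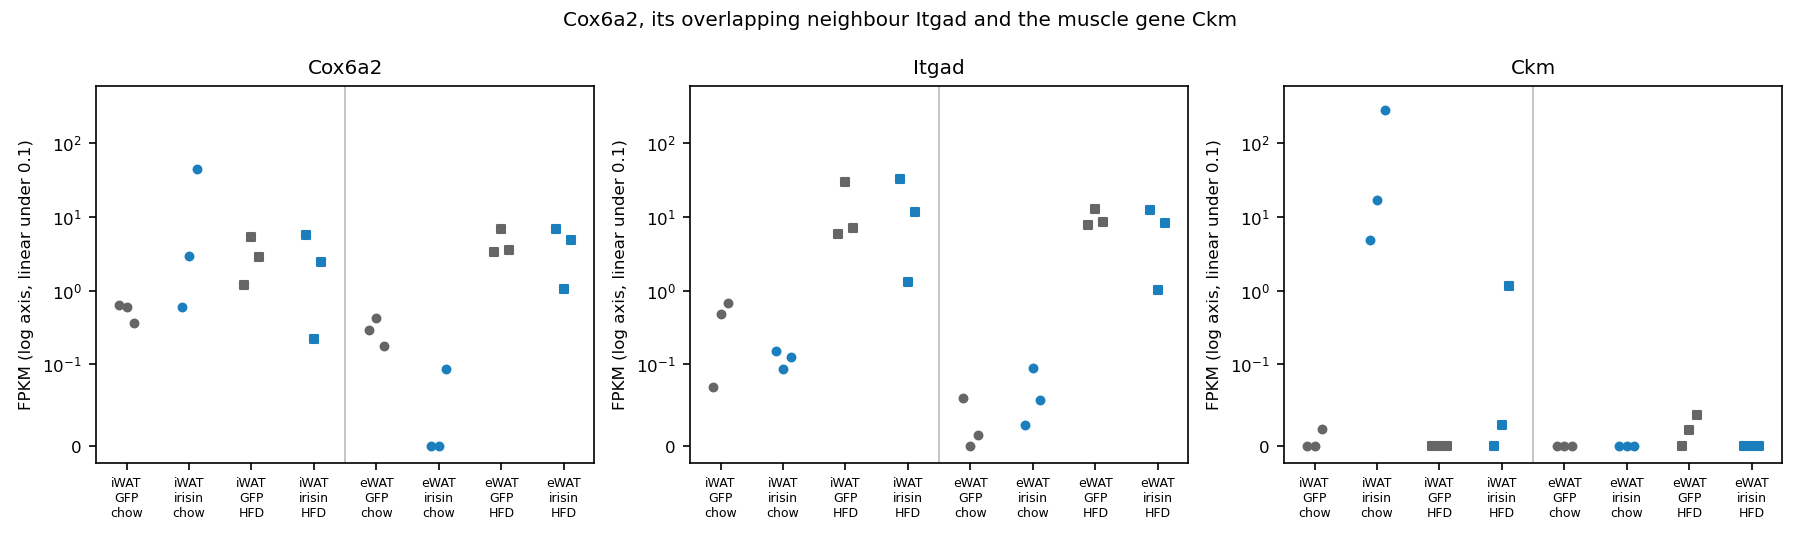
FPKM (y axis, logarithmic, linear under 0.1) of Cox6a2, its overlapping neighbour Itgad and the muscle gene Ckm in every library (points; grey GFP, blue irisin; circles chow, squares HFD), by group (x axis). In eWAT Cox6a2 and Itgad are higher in all 6 HFD libraries than in all 6 chow libraries, whereas Ckm stands out in iWAT irisin chow, at 4.83, 17.2 and 279 FPKM.

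The other rises were small. Atp5g1, which encodes the proton-carrying c subunit of complex V, was at 6.73, 6.61 and 6.02 FPKM in eWAT GFP chow, 7.70, 6.57 and 6.82 in irisin chow, 9.79, 7.60 and 10.4 in GFP HFD and 7.17, 6.98 and 8.42 in irisin HFD. Its diets did not overlap in GFP but did in irisin. It rose by 0.29 ± 0.093 (adjusted p = 0.0317, limma). Cox7a2l, known for joining complexes III and IV into supercomplexes, was at 97.9, 108 and 111 FPKM in GFP chow, 104, 102 and 102 in irisin chow, 130, 118 and 121 in GFP HFD and 125, 115 and 113 in irisin HFD. All 6 HFD libraries were above all 6 chow libraries. Its rise was 0.20 ± 0.067 (adjusted p = 0.032, limma). Neither rise held under upper quartile scaling, where the adjusted p was 0.0755 for Atp5g1 and 0.15 for Cox7a2l (limma). With 1 of the 12 eWAT libraries left out, Atp5g1 was called in 6 of 12 fits and Cox7a2l in 5 of 12. Each was called in 6 of 11 other alternatives.

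Adipocyte and macrophage markers moved in the same comparison. Of 10 adipocyte markers 6 fell and 1 rose (median log2 fold change -0.79), with summed levels of 7868 to 10573 FPKM in eWAT chow, 5659 to 6333 in GFP HFD and 6050 to 12812 in irisin HFD. Of 10 macrophage markers 9 rose and 1 fell (median 1.71), with sums of 795 to 1301 FPKM in chow, 3463 to 4746 in GFP HFD and 1090 to 3351 in irisin HFD. Their part in the fall of the subunits was not tested.

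Within the vectors, HFD lowered 18 members and raised 2 (Cox6a2 and Atp5g1) in eWAT of GFP mice, where 26.5% of all genes were called (11.8% lower and 14.7% higher). In irisin mice it lowered 4 (Sdha, Uqcrc2, Atp5c1 and Atp5h) and raised Cox6a2, with 17.4% of all genes called (7.93% lower and 9.47% higher). The counts in irisin mice are thus near or under the shares of all genes. Cox6a2 passed the filter in eWAT only through HFD, so its calls within the vectors support nothing further either. The vector by diet interaction called 0 members and 0.00614% of all genes (limma; 658 genes and 0 members at an unadjusted p under 0.05). The HFD libraries did not overlap with chow for 32 lower and 3 higher members in GFP (21.1% and 22.9% of all genes) and for 17 lower and 2 higher in irisin (17.6% and 18.9%). Without eWAT irisin HFD 2, 39 members were called in the mean of both vectors and 20 in irisin mice. Without the 4 libraries rich in other tissues, 21 were called in the mean of both vectors, and 20 of the 34 calls held whichever of the 12 eWAT libraries was left out. Counts from fits with libraries left out are given without the share of all genes in the same fit.

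Promoters are shown for members with large falls, Atp5c1, Cox8a, Sdha and Uqcrfs1, for the small rises Atp5g1 and Cox7a2l, and for Atp5g2 and Atp5g3, the partners of Atp5g1. The sequences are the 250 bases before the start site in RefSeq, build GRCm38.p6, and 32 of the 46 member symbols had an entry. Capitals mark matches to the motif of NRF1, a transcription factor of nuclear genes for mitochondrial proteins, searched on both strands as GCGC and TGCGC with 1 base of any kind between them. For Atp5c1, which has 2 start sites in RefSeq, the window with a match is shown and the other held none.

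Sdha, chr13:74350241-74350490, minus strand: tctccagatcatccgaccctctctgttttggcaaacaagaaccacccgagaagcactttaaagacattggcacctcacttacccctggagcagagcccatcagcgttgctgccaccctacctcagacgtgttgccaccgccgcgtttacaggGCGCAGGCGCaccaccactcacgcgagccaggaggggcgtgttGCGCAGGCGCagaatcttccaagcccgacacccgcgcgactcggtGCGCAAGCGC
Atp5c1, chr2:10080433-10080682, minus strand: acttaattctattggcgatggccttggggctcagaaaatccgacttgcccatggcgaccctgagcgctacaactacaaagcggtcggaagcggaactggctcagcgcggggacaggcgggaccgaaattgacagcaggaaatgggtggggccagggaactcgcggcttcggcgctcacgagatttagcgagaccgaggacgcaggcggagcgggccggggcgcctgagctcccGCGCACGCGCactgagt
Cox8a, chr19:7217617-7217866, minus strand: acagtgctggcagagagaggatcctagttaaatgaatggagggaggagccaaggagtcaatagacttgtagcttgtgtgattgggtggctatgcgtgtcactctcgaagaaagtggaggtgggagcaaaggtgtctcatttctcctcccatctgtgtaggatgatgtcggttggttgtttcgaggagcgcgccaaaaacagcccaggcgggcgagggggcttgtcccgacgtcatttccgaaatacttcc
Uqcrfs1, chr13:30545317-30545566, minus strand: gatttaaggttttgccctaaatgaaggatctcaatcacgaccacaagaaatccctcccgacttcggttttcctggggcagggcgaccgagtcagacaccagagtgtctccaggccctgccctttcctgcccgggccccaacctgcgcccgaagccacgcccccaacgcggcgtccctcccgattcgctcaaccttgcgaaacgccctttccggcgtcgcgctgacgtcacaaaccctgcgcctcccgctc
Atp5g2, chr15:102671048-102671297, minus strand: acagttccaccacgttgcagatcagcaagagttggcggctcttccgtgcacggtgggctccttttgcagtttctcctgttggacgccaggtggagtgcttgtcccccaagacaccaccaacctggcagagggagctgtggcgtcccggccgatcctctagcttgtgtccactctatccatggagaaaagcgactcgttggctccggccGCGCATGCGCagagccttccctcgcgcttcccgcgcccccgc
Atp5g3, chr2:73911327-73911576, minus strand: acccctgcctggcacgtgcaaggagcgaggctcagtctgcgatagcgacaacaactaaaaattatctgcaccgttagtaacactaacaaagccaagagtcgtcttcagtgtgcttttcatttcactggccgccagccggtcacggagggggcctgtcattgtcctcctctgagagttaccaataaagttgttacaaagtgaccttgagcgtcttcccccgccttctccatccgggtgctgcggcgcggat
Atp5g1, chr11:96075632-96075881, minus strand: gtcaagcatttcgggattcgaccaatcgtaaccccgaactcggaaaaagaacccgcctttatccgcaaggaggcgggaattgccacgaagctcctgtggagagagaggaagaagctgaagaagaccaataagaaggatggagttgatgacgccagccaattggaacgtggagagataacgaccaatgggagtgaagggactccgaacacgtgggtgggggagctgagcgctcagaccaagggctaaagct
Cox7a2l, chr17:83514334-83514583, minus strand: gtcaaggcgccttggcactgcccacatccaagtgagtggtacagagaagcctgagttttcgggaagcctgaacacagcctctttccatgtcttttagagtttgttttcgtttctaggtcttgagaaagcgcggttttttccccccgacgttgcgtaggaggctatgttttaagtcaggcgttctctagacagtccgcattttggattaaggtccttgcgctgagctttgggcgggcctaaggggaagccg

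The Sdha promoter held 3 matches, the Atp5c1 window shown 1 and the Atp5g2 window 1, and the other 5, Cox8a and Uqcrfs1 among them, held 0. The Atp5g2 window lies wholly within the gene of the deposited table (chr15:102662864-102672352, minus strand). It is thus downstream of the start of the gene whose FPKM is given. Of the 32 members with an entry, 7 held the NRF1 motif (21.9%), against 4.23% of the 27025 symbols in the whole table. They were Atp5c1, Atp5g2, Atp5h, Atp5k, Cox6a1, Sdha and Sdhd. The ETS motif CCGGAAG, searched the same way, was present in 9 of 32 members (28.1%) and in 7.83% of all symbols. Cox6a1, Atp5h and Sdhd held both. Among members with an entry, the NRF1 motif was in 6 of the 21 that fell in eWAT, 0 of the 2 that rose and 1 of the 8 that were tested and not called, and the remaining 1 was not tested. The ETS motif was in 5 of the 21 that fell, 0 of the 2 that rose and 4 of the 8 not called. A link between either motif and the diet change was not tested. These are matches of letters in a window and not sites bound by a factor.

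Irisin did not change any subunit at the threshold in eWAT. Against GFP on HFD 0 of 44 members were called (0% of all genes; 2 members and 1510 genes at an unadjusted p under 0.05, limma), and the median log2 fold change was 0.21. The lowest and highest values were -0.30 ± 0.48 for Cox6a2 and 0.49 ± 0.20 for Cox8a. Cox8a was also the 1 member whose irisin HFD libraries all lay above the GFP HFD libraries (6.66% of all genes), and 0 lay below (6.76%). Of 10 adipocyte markers 9 had a positive log2 fold change (median 0.64) and of 10 macrophage markers 9 a negative one (median -0.91), and their part was not tested. Without eWAT irisin HFD 2 the median was 0.075. On chow the median was 0.083 (0.0030 without eWAT GFP chow 1, 0.20 without eWAT GFP chow 2), with 0 members called (0% of all genes; 0 members and 845 genes at an unadjusted p under 0.05, limma), from -0.58 ± 0.48 for Cox6a2 to 0.56 ± 0.35 for Cox4i2. The irisin libraries lay below GFP for 1 member on chow, Cox6a2 (4.38% of all genes), and above it for 0 (5.63%). Cox6a2 was under 0.5 FPKM in every eWAT chow library and passed the filter only through HFD. Its values on chow thus lie near the floor and support nothing further. By weighting the libraries by their quality, 13 members were called higher with irisin on HFD (limma array weights), and 0 were called by voom on recovered reads. The share of all genes called under these weights is not given here, so the count is not read as a result about the members.

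In iWAT the subunits were lower with irisin than with GFP on chow and higher on HFD, and neither difference reached the threshold. On chow 41 of 44 members had a negative log2 fold change, with a median of -0.36, against -0.0060 over all genes. The median was -0.34 for complex II, -0.36 for III, -0.45 for IV and -0.34 for V. None was called (0% of all genes; 5 members and 688 genes at an unadjusted p under 0.05, limma). The 3 irisin chow libraries lay below all 3 GFP chow libraries for 33 of 44 members, against 8.12% of all genes, and above them for 0 (8.22%). Atp5k, a membrane subunit of complex V, was at 91.0, 93.8 and 85.8 FPKM in GFP chow and 53.5, 48.2 and 60.8 in irisin chow, with a log2 fold change of -0.74 ± 0.28 (adjusted p = 0.919, limma). Cox7c, a small subunit of complex IV, was at 183, 168 and 174 FPKM against 110, 114 and 116, or -0.63 ± 0.26 (adjusted p = 0.919, limma). In both genes the irisin libraries lay well below the GFP libraries with no overlap. In complex II the values ran from -0.36 for Sdhc to -0.31 for Sdhb, and in complex III from -0.53 for Uqcrb to -0.25 for Uqcrc1.

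The members against this direction were Cox6a2, Cox4i2 and Atp5g1. Cox6a2 was at 0.646, 0.609 and 0.366 FPKM in iWAT GFP chow and at 0.606, 2.96 and 44.2 in irisin chow, and the highest value was in the library with the most muscle transcripts. Ckm there was at 279 FPKM, against 4.83 and 17.2 in the other 2 irisin chow libraries and 0 to 0.0213 in GFP chow. The log2 fold change of Cox6a2 was 2.43 ± 1.15 (adjusted p = 0.919, limma). All 8 tested muscle markers were higher in irisin chow, with a median log2 fold change of 6.01. The 10 adipocyte markers were all lower (median -0.31), with summed levels of 8068, 8988 and 11431 FPKM in GFP chow and 7615, 6264 and 7476 in irisin chow. All 10 macrophage markers were higher (median 0.89), with sums of 1397, 1354 and 209 FPKM against 1239, 1727 and 1197. Their part in the lower subunit levels was not tested. Weighting the libraries by quality called 20 members lower and 1 higher here (limma array weights), and voom on recovered reads called 0. The weighted counts too lack the share of all genes beside them and are not read as a result about the members.

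On HFD 42 of 44 members were higher with irisin in iWAT, with a median of 0.36 (0.0039 over all genes), and again none was called (0% of all genes; 0 members and 431 genes at an unadjusted p under 0.05, limma). The median was 0.37 for complex II, 0.42 for III, 0.39 for IV and 0.29 for V. Cox8a was at 325, 598 and 701 FPKM in GFP HFD and 579, 829 and 808 in irisin HFD, and Atp5b at 269, 453 and 483 against 446, 686 and 483. In both genes GFP HFD 1 was far below all others and the remaining libraries overlapped. Non-overlap was seen for 1 member, Atp5s, at 3.69, 4.17 and 4.05 FPKM against 4.36, 5.62 and 4.43 (3.21% of all genes), and no member lay lower (3.13%). The lowest and highest log2 fold changes were -0.46 ± 1.15 for Cox6a2 and 0.50 ± 0.28 for Cox8a. Within complex II they ran from 0.34 for Sdhd to 0.42 for Sdhb, within III from 0.34 for Uqcrh to 0.48 for Uqcr11, and within V from 0.13 for Atp5g2 to 0.44 for Atp5b. Without iWAT GFP HFD 1, the library with the highest B cell and the lowest adipocyte sum in iWAT, the median was 0.11. All 10 adipocyte markers had positive values (median 0.46) and 9 of 10 macrophage markers negative ones (median -0.39), and their part was not tested.

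**Figure D4:**
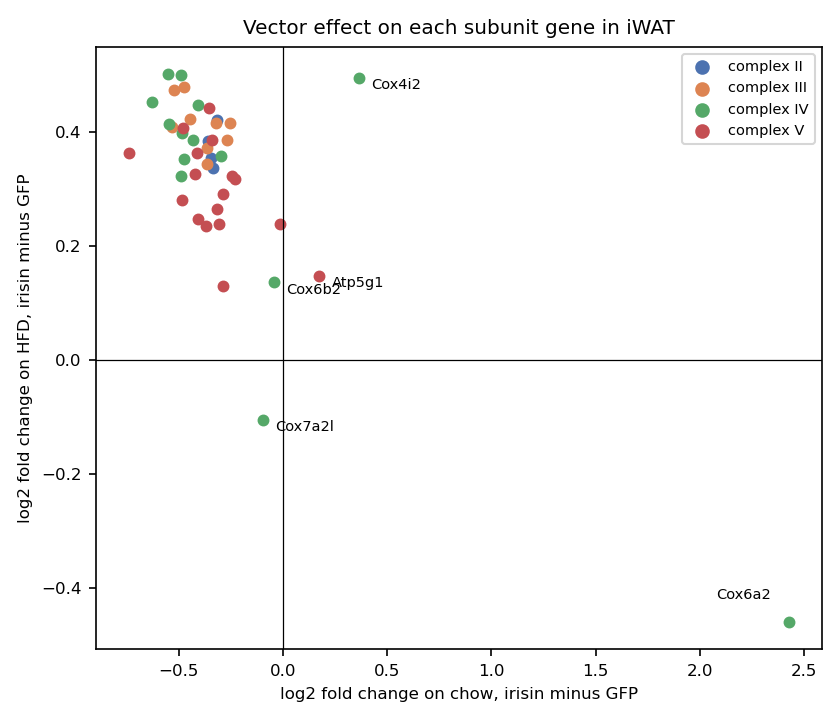
Log2 fold change of irisin minus GFP in iWAT on chow (x axis) and on HFD (y axis) for each of the 44 tested members (points, coloured by complex), on the log2(FPKM + 0.5) scale. Most members lie at negative values on chow and positive values on HFD, and none was called in either comparison.

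With diet, the median of the members was negative in iWAT of GFP mice and positive in irisin mice. In GFP mice 1 member, Atp5g2, was called lower with HFD (2.37% of all genes called, 0.924% lower and 1.44% higher), and the median was -0.45. In irisin mice the median was 0.24 and 0 members were called, against 9.01% of all genes, 4.82% higher and 4.19% lower (5 members and 4436 genes at an unadjusted p under 0.05, limma). HFD and chow did not overlap for 22 lower members and 1 higher in GFP (11.3% and 12% of all genes) and for 17 higher and 0 lower in irisin (17.8% and 19.2%). The interaction had a median of 0.74 and called 0 members (0% of all genes; 25 members and 996 genes at an unadjusted p under 0.05, limma). Cox7c had an interaction of 1.08 ± 0.36 and Atp5k of 1.10 ± 0.40, each with an adjusted p of 0.688 (limma). Markers of other cells moved in these comparisons. In irisin mice 7 of 8 muscle markers fell with HFD (median -5.17), 2 of 10 adipocyte markers rose (median 0.46) and 1 of 10 macrophage markers fell (median -1.34). In GFP mice the median was 2.84 for 6 tested B cell markers (1 rose), -0.22 for adipocyte and -0.23 for macrophage markers (none called). Their part was not tested. Without iWAT GFP HFD 1 the median was -0.21 for diet in GFP mice and 0.47 for the interaction.

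Over both vectors 1 of 44 members changed with diet in iWAT, against 17.5% of all genes (9.45% higher and 8.02% lower). This was Atp5g2, a second gene for the c subunit of complex V. It was at 65.4, 62.4 and 77.6 FPKM in GFP chow, 55.9, 53.7 and 58.1 in irisin chow, 39.8, 45.6 and 47.9 in GFP HFD and 43.9, 54.0 and 48.3 in irisin HFD. Within GFP the diets did not overlap, and within irisin 1 HFD library exceeded the lowest chow library. Atp5g2 fell by 0.41 ± 0.093 (adjusted p = 0.0139, limma), a call that held without each of the 12 libraries, and in GFP mice alone by 0.62 ± 0.13 (adjusted p = 0.0383, limma), a call lost without 9 of the 12. The members' median was -0.091, with 12 higher and 32 lower, and its sign was not stable. It was 0.022 without iWAT GFP HFD 1 and 0.041 with array weights, where 25 were higher and 19 lower. In complex II the values ran from -0.30 for Sdhb to 0.034 for Sdhd, in complex III from -0.27 for Uqcrh to 0.20 for Uqcrc1, and in complex IV from -0.47 for Cox6b2 to 0.97 for Cox4i2.

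The change with HFD differed between the depots for 4 members of complexes III and V. The depot by diet interaction (the diet effect in eWAT minus that in iWAT, mean of vectors) called Atp5a1, Atp5b, Atp5c1 and Cyc1, all lower, against 16.1% of all genes (6.86% lower and 9.23% higher). The median over the members was -0.32. Atp5a1 was at 286, 355 and 299 FPKM in eWAT GFP chow, 338, 342 and 305 in irisin chow, 225, 224 and 213 in GFP HFD and 243, 305 and 219 in irisin HFD. In iWAT it was at 282, 291 and 351, 275, 228 and 278, 222, 337 and 331, and 332, 425 and 344 FPKM in the same order of groups. Its diet effect was -0.44 in eWAT and 0.21 in iWAT, a difference of -0.65 ± 0.17 (adjusted p = 0.0135, limma). For Atp5b, Atp5c1 and Cyc1 the differences were -0.70 ± 0.23, -0.63 ± 0.20 and -0.65 ± 0.20 (adjusted p = 0.0441, 0.0346 and 0.0371, limma). The adipocyte markers showed the same sign, with 5 of 10 called lower and a median of -0.91, and 9 of 10 macrophage markers were called higher. The count of 4 ranged from 1 to 20 when single libraries were left out, and Atp5a1 was called in all 24 of these fits. Without iWAT GFP HFD 1 it was 20, without eWAT irisin HFD 2 it was 13, and without iWAT GFP chow 3 or iWAT irisin HFD 1 it was 9.

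On chow the depots differed in 1 member of 44, against 9.82% of all genes (5.59% lower and 4.22% higher in iWAT), and the median difference (iWAT minus eWAT) was -0.030 (0.032 with quantile normalization, 0.020 without eWAT GFP chow 2). This was Cox6b2, at 1.29, 1.12 and 1.85 FPKM in iWAT GFP chow and 1.18, 1.49 and 1.37 in irisin chow, and at 3.10, 2.99 and 5.18 in eWAT GFP chow and 3.79, 3.36 and 3.96 in irisin chow. Every eWAT chow library exceeded every iWAT chow library. The difference was -1.16 ± 0.19 (n = 6 against 6, adjusted p = 0.000275, limma). The 6 epididymis markers summed to 0 to 0.0919 FPKM in the eWAT chow libraries, and eWAT GFP HFD 3, with the epididymis transcripts, had 2.07 FPKM of Cox6b2 against 0.934 and 2.06 in the other 2 of its group. The part of other tissues in the Cox6b2 difference was not tested.

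After HFD the depots differed in 15 members, 11 higher and 4 lower in iWAT, against 28.7% of all genes (12.8% higher and 15.9% lower). The median difference was 0.23. Of complex III, Cyc1 differed by 0.71 ± 0.15, Uqcrc2 by 0.64 ± 0.14 and Uqcrc1 by 0.58 ± 0.13 (adjusted p = 0.0012, 0.00167 and 0.0025, limma). Of complex V, Atp5b was at 269 to 686 FPKM in iWAT and 232 to 393 in eWAT, a difference of 0.73 ± 0.16 (adjusted p = 0.00223, limma). The iWAT level was higher in most libraries, though GFP HFD 1 lay among the eWAT values. Sdha of complex II differed by 0.65 ± 0.16 (adjusted p = 0.00426, limma). The called members with lower levels in iWAT were Cox6b2 (-0.80 ± 0.19), Atp5g1 (-0.54 ± 0.14), Atp5g2 (-0.32 ± 0.078) and Cox7a2l (-0.29 ± 0.083). Of 10 adipocyte markers 7 were higher in iWAT and of 10 macrophage markers 9 were lower, and their part was not tested. Without iWAT GFP HFD 1 29 members were called, a count given without the share of all genes in that fit.

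The isoform pairs were compared as log2 ratios of FPKM + 0.5 within each library, with exact two-sided permutation tests within diet and vector or within vector, adjusted over 15 tests. For the c subunit of complex V, 3 genes encode the same mature protein behind different import sequences. Atp5g3 was the most abundant, at 91.3 to 213 FPKM, then Atp5g2 at 39.8 to 77.6 and Atp5g1 at 4.58 to 10.4, and in no library did these ranges cross. Atp5g3 made up 62.8% to 79.8% of the sum of Atp5g3 and Atp5g2. The log2 ratio of Atp5g3 to Atp5g2 averaged 1.49 in iWAT and 0.98 in eWAT, a difference of 0.50 (n = 12 against 12, exact permutation p = 0.000125, adjusted 0.00188). This pools the diets: on chow the ratio averaged 1.22 in iWAT and 1.07 in eWAT, and after HFD 1.75 and 0.89. The depots were not tested within a diet. The ratio of Atp5g1 to Atp5g2 rose with HFD in eWAT by 0.55 (n = 6 against 6, exact permutation p = 0.005, the smallest that these groups allow, adjusted 0.025). In iWAT the ratio of Atp5g3 to Atp5g2 differed by 0.53 between HFD and chow, with an adjusted exact permutation p of 0.05 that is at the threshold and not under it.

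For complex IV the ubiquitous isoform was by far the more abundant in 3 of the pairs. Cox6a2 made up 0% to 7.87% of Cox6a1 and Cox6a2 together, Cox4i2 0.268% to 3.09% of its pair and Cox6b2 0.136% to 2.05%. The log2 ratio of Cox6a2 to Cox6a1 rose with HFD in eWAT by 3.15 (n = 6 against 6, exact permutation p = 0.005, adjusted 0.025), with the overlap with Itgad described above. No eWAT chow library of Cox6a2 reached 0.5 FPKM. The test of the ratio thus rests on a gene kept only through HFD, where it is high, and supports nothing further. In iWAT that ratio differed by 0.19 between diets (adjusted exact permutation p = 0.865). Cox7a2 and Cox7a2l had similar levels, at 66.1 to 148 and 88.8 to 130 FPKM. The log2 ratio of Cox7a2l to Cox7a2 was 0.42 higher with HFD in eWAT and 0.35 lower in iWAT than in eWAT, both with an adjusted exact permutation p of 0.05, at the threshold and not under it.

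**Figure D5:**
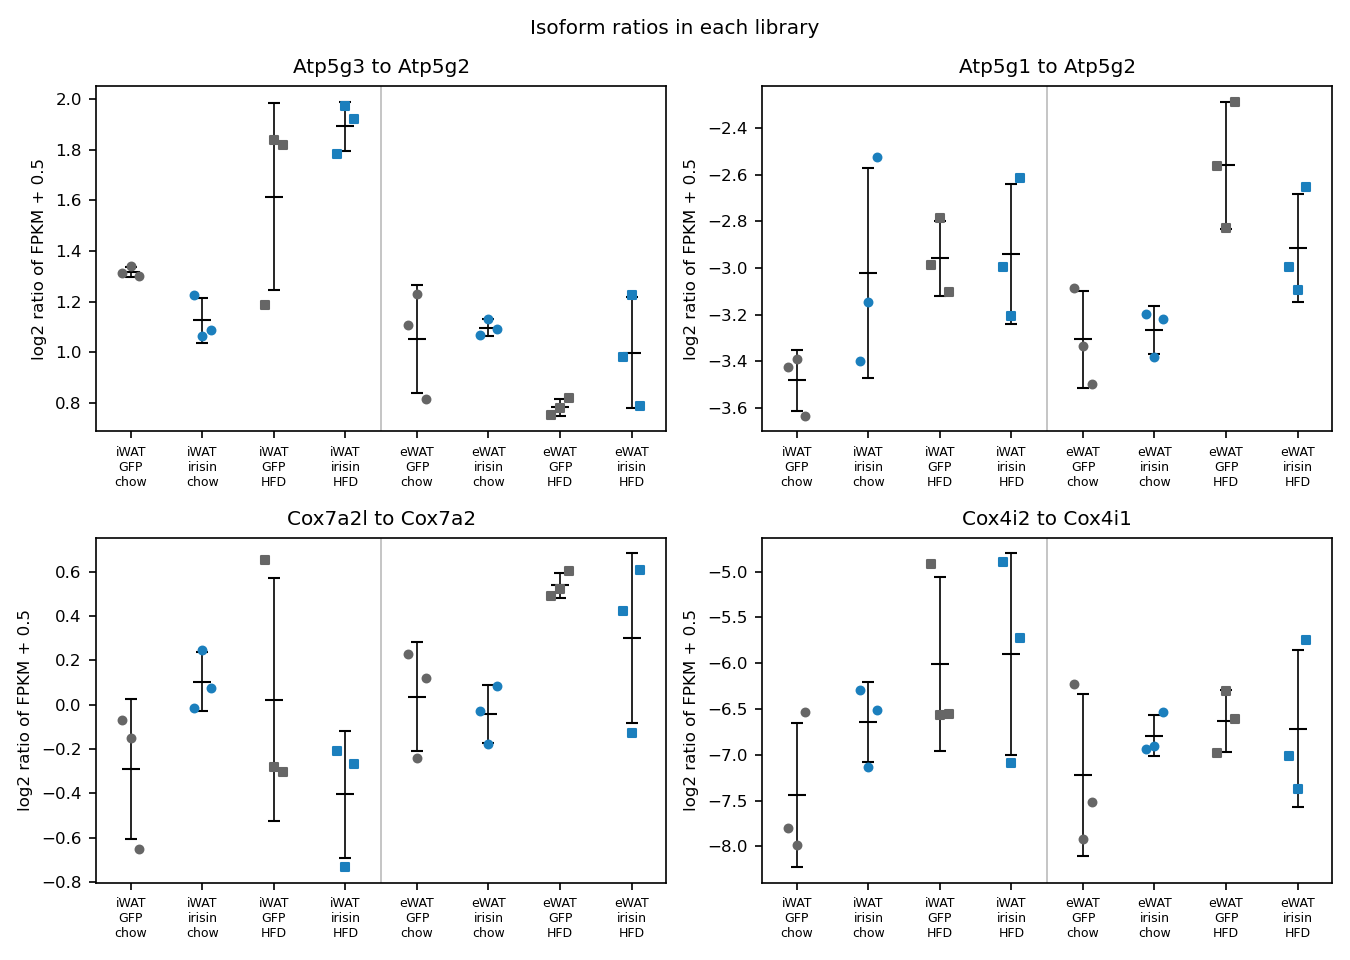
Log2 ratio of FPKM + 0.5 (y axis) for 4 isoform pairs in every library (points; grey GFP, blue irisin; circles chow, squares HFD), by group (x axis), with the mean (bar) and SD (whiskers) of 3 libraries. The Atp5g3 to Atp5g2 ratio averages 1.49 in iWAT and 0.98 in eWAT over both diets. It averages 1.22 and 1.07 on chow, and 1.75 and 0.89 after HFD. Atp5g1 to Atp5g2 is higher after HFD in eWAT.

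Cox4i2, the isoform of lung and of the mural cells around small vessels, had a 9.49-fold range over the libraries. It was at 1.32, 1.05 and 4.65 FPKM in iWAT GFP chow, 3.40, 1.86 and 2.89 in irisin chow, 6.26, 3.11 and 3.45 in GFP HFD and 9.97, 3.04 and 6.79 in irisin HFD. In eWAT it was at 1.21 to 3.68 on chow and up to 3.72 on HFD. After HFD its level in iWAT exceeded that in eWAT by 1.03 ± 0.32 (adjusted p = 0.0206, limma), a call lost without the 4 libraries rich in other tissues (0.87, adjusted p = 0.066). Its ratio to Cox4i1 was 1.08 higher with HFD in iWAT, which did not pass (exact permutation p = 0.06, adjusted 0.129). Of 10 mural markers 5 were called higher in iWAT than in eWAT after HFD, Rgs5 by 1.61 ± 0.21 (adjusted p = 1.94e-05, limma). The summed level of the mural markers was 141 to 332 FPKM in iWAT HFD and 97.4 to 318 in eWAT HFD. The highest sum in iWAT HFD was in irisin HFD 1, with 9.97 FPKM of Cox4i2. In eWAT HFD it was in irisin HFD 2, with 1.73 FPKM of Cox4i2. The part of mural cells was not tested.

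The 2 isoforms left out by the rule were low to moderate. Cox7a1 was at 2.34 to 13.0 FPKM over all libraries. Cox8b was at 57.6 to 218 FPKM in iWAT chow, 22.1 to 135 in iWAT HFD, 12.6 to 32.3 in eWAT chow and 9.57 to 42.1 in eWAT HFD, and was called higher in iWAT than in eWAT on chow by 2.21 ± 0.37 (adjusted p = 0.000391, limma).

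The genes around these complexes were described from lists. Complex I, the largest complex of the chain, gave counts like those of the members: of 38 subunits 24 fell and 0 rose with HFD in eWAT (median -0.46), and 0 were called with irisin in either depot or diet. Its median with irisin in iWAT was -0.38 on chow and 0.35 on HFD. Of 30 tested assembly factors 7 fell and 2 rose with HFD in eWAT (median -0.16). Among all genes 18.4% fell and 20.9% rose with HFD in eWAT, so the counts of assembly factors are near or under these shares. The assembly factors with the smallest adjusted p were Uqcc3 of complex III (-0.58 ± 0.11), Sdhaf3 of complex II (0.57 ± 0.10) and Cox18 of complex IV (-0.66 ± 0.12), with adjusted p of 0.00159, 0.00161 and 0.00196 (limma). In iWAT 3 assembly factors rose with HFD, Sdhaf3, Cox10 and Uqcc1, and Cox14 fell (9.45% of all genes higher and 8.02% lower). None of the 30 was called for irisin against GFP in either depot or diet.

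Of 14 tested regulators 1 changed with HFD in eWAT (39.3% of all genes): Pparg, the master factor of adipocytes and also an adipocyte marker above, fell by 0.76 ± 0.11 (adjusted p = 0.000454, limma). Of 15 in iWAT 1 changed (17.5% of all genes): Esrrg, an orphan receptor of oxidative tissues, was at 0.00884 to 0.34 FPKM on chow and 0.558 to 1.61 on HFD, with a log2 difference of 1.32 ± 0.20 (adjusted p = 0.00194, limma). It passed the filter in iWAT only through HFD, so its call supports nothing further. Ppargc1a and Ppargc1b, coactivators of mitochondrial genes, were higher in iWAT than in eWAT on chow, by 0.98 ± 0.185 and 0.78 ± 0.16 (adjusted p = 0.00122 and 0.00329, limma). Of 9 tested carriers and modulators 2 rose and 2 fell with HFD in eWAT, near the 20.9% and 18.4% of all genes. Ucp2, a carrier abundant in immune cells, was at 27.3 to 40.0 FPKM on chow and 59.5 to 181 on HFD and rose by 1.93 ± 0.23 (adjusted p = 0.000166, limma). Atpif1, the inhibitor of complex V, was at 10.9 to 14.8 FPKM on chow and at 42.0, 27.6 and 28.6 in GFP HFD and 24.1, 16.9 and 26.8 in irisin HFD. It rose by 1.06 ± 0.14 (adjusted p = 0.000292, limma), while 12 of the 17 tested subunits of complex V fell. Slc25a4, the ADP and ATP carrier, fell by 0.45 ± 0.12 (adjusted p = 0.0151, limma).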

How the data were processed

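White fat RNA of 24 libraries was read from 1 deposited table, in which samples are matched to columns by their titles. Per the labels' protocols the libraries hold polyadenylated RNA. The submitters' processing notes name HISAT2 2.0.5 (alignment) and featureCounts 1.5.0-p3 (counting), and the values the authors deposited are FPKM. A further 8 columns, equal to group means, were left aside. No build of the genome was named in the sources used here. Of the members, 45 lie at the position and strand of GENCODE M21, as do 98% of all genes.

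Values times gene length were whole multiples of 1 step within a tolerance of 0.01 (100% of values), so reads were recovered. At 2000 bases, 1 FPKM corresponds to between 26.7 and 39.3 reads. Genes with at least 0.5 FPKM in 3 libraries were fitted with limma 3.58.1 (R 4.3.3) on log2(FPKM + 0.5), with 16125 genes for iWAT, 16274 for eWAT and 17687 for the joint fit, and with Benjamini-Hochberg adjustment over all of them. Each depot had 4 groups in 1 fit, and depots were compared in a fit of all 8 groups. Exact permutation p with 3 against 3 cannot go under 0.1. Ratios were tested in Python 3.11.15, and the fit was tested on simulated data.

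Members, lists and tests were chosen with earlier results of these data known. Every member may be named. Statistics are given, per comparison and complex, for the 3 best called members at most, by adjusted p, or else for the extremes. Isoform sets and core subunits are named throughout, and up to 3 called genes of other lists. Itgad, Ckm, and members shown for non-overlap were chosen after their values were seen. Alternatives were other pseudocounts, filters and scalings, voom on recovered reads, array weights, a replicate block, 1 fit of all groups and left-out libraries. Counts of members in the alternatives are given without the share of all genes called in the same fit.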

Additional observations from a re-analysis of the deposited data

Results flagged for a closer look

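The response to HFD differed between the depots for 4 of 44 members by the test of the difference itself (diet effect in eWAT minus diet effect in iWAT, mean of vectors, limma, adjusted p under 0.05). Among all genes 16.1% were called, 6.86% lower and 9.23% higher. All 4 members were lower, and their count is under the share of both directions together and near the share called lower. Of 24 fits with 1 library left out, Atp5a1 was called in 24, Atp5c1 in 12, Cyc1 in 11 and Atp5b in 8. The difference was -0.65 for Atp5a1, -0.63 for Atp5c1, -0.65 for Cyc1 and -0.70 for Atp5b. For Atp5a1 and Cyc1 the change from chow to HFD was -0.44 and -0.57 in eWAT and 0.21 and 0.08 in iWAT. For Atp5b it was -0.50 in eWAT and 0.20 in iWAT, and for Atp5c1 -0.82 and -0.19. The same interaction was just above the threshold for Uqcrc1 (adjusted p = 0.0515), Uqcrfs1 (0.0549), Atp5g3 (0.06) and Uqcrc2 (0.0629).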

How the results depend on the processing

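The members' median turned sign for diet in iWAT over both vectors (-0.091, against 0.041 with array weights and 0.041 without the 4 libraries rich in other tissues) and for the depots on chow (-0.030, against 0.032 with quantile normalization). Counts of members called, all in limma, moved as follows. They show how the fits differ and, without the share of all genes in each fit, are no result about the members. Array weights gave 21 for irisin in iWAT on chow, 12, 22 and 7 for diet in iWAT (GFP, irisin, mean of vectors), 13 for irisin in eWAT on HFD, 36 and 33 for diet in eWAT (GFP, irisin), and 7, 32 and 30 for the depots on chow, on HFD and depot by diet. With voom on recovered reads the counts were 3 and 2 (iWAT diet, GFP and mean), 12 (eWAT diet, irisin) and 9 (depot by diet). Voom also shifted the median of all genes by over 0.1 in 3 iWAT comparisons, and the members' median was then 0.26 for irisin on HFD, 0.094 for diet in irisin mice and 0.57 for the interaction. Of the genes called for diet in irisin iWAT, 558 of 1371 were higher with voom, against 778 of 1453. Quantile normalization gave 31 and 17 (eWAT diet, GFP and irisin), 23 and 10 (depots on HFD, depot by diet), and upper quartile scaling gave 8 (eWAT diet, irisin; 1 higher and 7 lower). Without a filter the counts were 0 (iWAT diet, GFP), 12 and 3 (eWAT diet, GFP and irisin) and 1 (depot by diet), and with a pseudocount of 0.1 it was 2 (depots on chow). All 8 groups in 1 fit gave 8 and 2 (iWAT diet, GFP and mean) and 9 and 3 (eWAT diet, GFP and irisin). Without the 4 libraries rich in other tissues they were 0, 1 and 2 (iWAT diet, GFP, irisin, mean), 8 and 21 (eWAT diet, GFP and mean), and 25 and 14 (depots on HFD, depot by diet). There the eWAT diet ratios of Cox6a2 to Cox6a1 (3.22) and of Atp5g1 to Atp5g2 (0.54) had an adjusted exact permutation p of 0.0625, with fewer samples. The causes of the other moves were not tested.

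Leaving out 1 library at a time, the counts ranged from 0 to 2 (iWAT diet, GFP), 0 to 6 (iWAT diet, irisin), 1 to 2 (iWAT diet, mean; depots on chow), 8 to 27 (eWAT diet, GFP), 1 to 20 (eWAT diet, irisin), 20 to 39 (eWAT diet, mean), 13 to 29 (depots on HFD) and 1 to 20 (depot by diet). The eWAT count for the mean of vectors was 20 without GFP HFD 3, 22 without GFP chow 2 and 22 without irisin chow 1. For diet in eWAT of GFP mice it was 8 without GFP chow 2 or GFP HFD 3, 9 without GFP chow 3 or GFP HFD 1 and 11 without GFP HFD 2. In irisin mice it was 1 without irisin HFD 1, 2 without irisin chow 1, irisin chow 2 or irisin HFD 3, 3 without irisin chow 3 and 20 without irisin HFD 2. The iWAT count in irisin mice was 6 without GFP HFD 1, and the depot count on chow 2 without iWAT irisin chow 1. Depot by diet was 2 without eWAT GFP HFD 1 and 1 without each of iWAT GFP chow 1 and 2, irisin chow 2, GFP HFD 2 and 3 and irisin HFD 2, and eWAT GFP chow 2, irisin chow 1 and 2, GFP HFD 3 and irisin HFD 1 and 3. The log2 ratios ranged from 0.48 to 0.62 (Atp5g1 to Atp5g2) and 2.92 to 3.58 (Cox6a2 to Cox6a1) for eWAT diet, -0.24 to -0.13 (Atp5g3 to Atp5g2) and 0.35 to 0.53 (Cox7a2l to Cox7a2) there, 0.21 to 0.43 (Atp5g1 to Atp5g2), 0.48 to 0.64 (Atp5g3 to Atp5g2) and 0.81 to 1.38 (Cox4i2 to Cox4i1) for iWAT diet, and -0.43 to -0.31 (Cox7a2l to Cox7a2) between depots.

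Between libraries with the same replicate number, every correlation of deviations was over 0.1 in 1 of 28 pairs of groups (range -0.49 to 0.60). That pair was iWAT GFP HFD and eWAT GFP chow, whose replicate 1 libraries had the highest B cell sums. With so few libraries per group, this cannot tell whether libraries come from the same mice. With the replicate block the counts were 0 and 2 (iWAT diet, GFP and mean), 8 (eWAT diet, irisin), 33 (eWAT diet, mean) and 7 (depot by diet). The block moved Cox7a2l in eWAT to an adjusted p of 0.0504 (limma).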
